A study of Mus musculus with 6 samples.

Results

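Usp2, Noct, Wee1 and Mfsd2a are 4 genes whose transcripts cycle over the day in mouse liver and whose levels were far lower in livers of cadmium-exposed mice. They were picked by symbol, 4 of the 34352 genes in the deposited table that carries symbols, because of their low cadmium values. Their difference between the groups is therefore described without a test. The cadmium group consisted of 3 liver libraries from wild-type C57BL/6 mice given 20 mg per kg of CdCl2 by gavage every day for 90 days. The control group consisted of 3 libraries from mice of the same strain and genotype given 0 mg per kg over the same time. Mice were male and 6 to 8 weeks old per the labels, which assign 6 mice to each group and do not say how these map to the 3 libraries. P-values therefore measure the spread between libraries, which may be technical. The labels used here do not give the hour at which livers were taken. Against the label of male mice, the X-inactivation transcript Xist was present in all 6 libraries (27.1 to 35.5 FPKM in cadmium, 19.7 to 25.8 FPKM in control), and the Y-linked genes Ddx3y and Eif2s3y were listed at 0. Metallothionein Mt1, which cadmium induces, was at 378 to 729 FPKM in cadmium and 7.39 to 41.3 FPKM in control. All libraries are the input fraction of an N6-methyladenosine (m6A) immunoprecipitation, described in the labels as fragments left unbound by the antibody, so a lower level cannot be told apart from a larger bound share. In liver tissue, fewer cells of a type and less RNA per cell cannot be told apart either.

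The liver clock is a loop in which CLOCK and BMAL1 drive genes through E-box elements, the PER and CRY proteins repress that drive, and REV-ERB proteins repress Bmal1. Output genes are driven by the same factors, by the PAR bZIP proteins DBP, TEF and HLF acting on D-box elements, or by daily cues such as feeding and body temperature. Usp2 encodes a ubiquitin protease whose reported substrates include cyclin D1, MDM2 and clock proteins. Noct encodes nocturnin, a phosphatase of NADP(H) related in sequence to mRNA deadenylases. Wee1 encodes the kinase that holds CDK1 inactive before mitosis and is a textbook clock output in regenerating mouse liver. Mfsd2a encodes a sodium-dependent carrier of lysophosphatidylcholine, through which docosahexaenoic acid enters cells, and is induced in mouse liver by fasting.

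Promoter windows of 3 of the 4 genes were found in the RefSeq table for GRCm38.p6, from 250 bases before to 50 bases after a start site; Wee1 was not among them. They are shown because the genes share a direction of change and are known outputs of factors with defined binding motifs. Capitals mark the motifs found on either strand out of the 9 searched.

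Usp2, chr9:44084670-44084969, plus strand: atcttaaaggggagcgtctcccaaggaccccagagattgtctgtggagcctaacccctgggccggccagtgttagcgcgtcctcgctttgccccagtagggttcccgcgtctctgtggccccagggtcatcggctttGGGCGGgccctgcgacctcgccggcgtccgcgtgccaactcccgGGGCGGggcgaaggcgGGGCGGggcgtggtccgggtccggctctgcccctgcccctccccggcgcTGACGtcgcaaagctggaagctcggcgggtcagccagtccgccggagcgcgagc

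Noct, chr3:51224197-51224496, plus strand: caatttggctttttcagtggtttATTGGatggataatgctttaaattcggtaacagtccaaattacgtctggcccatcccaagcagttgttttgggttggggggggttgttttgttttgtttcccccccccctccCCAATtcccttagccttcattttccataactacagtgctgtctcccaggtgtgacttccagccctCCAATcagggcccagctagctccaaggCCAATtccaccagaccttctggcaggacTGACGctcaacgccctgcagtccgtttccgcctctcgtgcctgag

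Mfsd2a, chr4:122961139-122961438, minus strand: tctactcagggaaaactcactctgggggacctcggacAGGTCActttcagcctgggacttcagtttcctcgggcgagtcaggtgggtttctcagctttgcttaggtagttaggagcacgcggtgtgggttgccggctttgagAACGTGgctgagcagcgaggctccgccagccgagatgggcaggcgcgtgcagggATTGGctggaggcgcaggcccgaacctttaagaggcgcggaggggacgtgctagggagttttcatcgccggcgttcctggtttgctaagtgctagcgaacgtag

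The Usp2 window lies inside the annotated gene, at the start of a shorter transcript, and the window at the first annotated start was not analysed here. The canonical E-box CACGTG was in none of the 3 windows, and 7.15% of the 32851 windows in the table held it. The D-box spellings TTATGTAA and TTACGTAA were in none of them either, against 0.938% and 0.119% of all windows. Mfsd2a held 1 E-box variant AACGTG at base -108 from the start, a motif in 4.68% of windows, and 1 AGGTCA, the core letters bound by REV-ERB proteins, at base -213, a motif in 16.3% of windows. Usp2 and Noct each held 1 TGACG, the shorter form of the cAMP response element, at bases -4 and 6, a motif in 20.8% of windows that is also contained in the full element TGACGTCA (1.79% of windows, none of the 3). Noct held 4 CCAAT boxes and Mfsd2a held 1, a motif in 37.4% of windows. Usp2 held 3 GC boxes of the letters GGGCGG, a motif in 35.7% of windows. G and C made up 71.7% of the Usp2 window, 52.0% of the Noct window and 60.3% of the Mfsd2a window, and the median window held 52.7%. A match describes letters only, and no match says only that these letters are not in the window.

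Usp2 (ENSMUSG00000032010) is a protein-coding gene on chromosome 9, 44067021 to 44095627 of mm10, plus strand, with 9 annotated transcripts. It was at 0.576, 2.28 and 0.604 FPKM in cadmium replicates 1 to 3, against 13.9, 10.3 and 8.88 FPKM in control replicates 1 to 3. FPKM are fragment counts set relative to gene length and library size. Each cadmium library lay below each control library, and the lowest control value was 3.89 times the highest cadmium value. Means were 1.15 ± 0.98 FPKM in cadmium and 11.03 ± 2.57 FPKM in control (SD, n = 3 each), a ratio of 0.105. The values rest on 146, 931 and 233 reads in the cadmium libraries and on 4740, 3042 and 2247 reads in the control libraries. For the smallest of these, 146 reads, the exact Poisson interval at 95% was 123 to 172, which covers counting error only. Cadmium replicate 2 stood well above the other 2 cadmium libraries, and the cadmium group's coefficient of variation was 84.7%, against 23.3% in control. Reads are summed over the gene, so the long and short forms of the protease cannot be told apart.

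Noct (ENSMUSG00000023087) lies on chromosome 3, 51224447 to 51251644, plus strand, and is protein coding. It was at 0.261, 0.646 and 0.308 FPKM in cadmium replicates 1 to 3, against 2.41, 8.23 and 6.32 FPKM in control replicates 1 to 3. The groups did not overlap, and the control libraries spread more widely relative to their mean than those of any other member, with control replicate 1 lowest. Means were 0.405 ± 0.210 FPKM in cadmium and 5.65 ± 2.97 FPKM in control (SD, n = 3 each), a ratio of 0.0716, the smallest of the 4. Reads numbered 147, 584 and 263 in cadmium and 1828, 5381 and 3551 in control, so counting error is small beside the spread between libraries.

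The level of Noct depends on the length its reads are set over. Its annotated exons together span 10658 bases, of which most come from 1 transcript with a long first exon, while the transcript Noct-201 is 3059 bases long. Deposited FPKM per read follow the joint length of all exons. Set over Noct-201 alone, the same reads would give 1.41 ± 0.73 FPKM in cadmium and 19.7 ± 10.3 FPKM in control, with the ratio as before. On the joint exon length, control levels ran from Mfsd2a over Usp2 to Noct and Wee1, whose ranges overlapped. In cadmium the order was Mfsd2a, Usp2, Wee1 and Noct, where Usp2 overlapped both Wee1 and Noct and the highest Noct value, 0.646 FPKM, lay below the lowest Wee1 value, 0.874 FPKM.

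Wee1 (ENSMUSG00000031016), a protein-coding gene on chromosome 7, 110122046 to 110143286, plus strand, has 1 annotated transcript of 3419 bases. Its levels were 0.881, 1.20 and 0.874 FPKM in cadmium replicates 1 to 3, against 5.17, 6.91 and 4.86 FPKM in control replicates 1 to 3. It was the most even of the 4 genes within both groups, with coefficients of variation of 18.9% in cadmium and 19.5% in control. Means were 0.985 ± 0.186 FPKM in cadmium and 5.65 ± 1.1 FPKM in control (SD, n = 3 each), a ratio of 0.174. The number of a library is also its batch in the labels, and each batch holds 1 library per group. Within batches 1, 2 and 3 the cadmium library had 0.170, 0.174 and 0.180 times the Wee1 level of the control library, a narrow range.

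Mfsd2a (ENSMUSG00000028655), protein coding, on the minus strand of chromosome 4, 122946850 to 122961188, had the highest level of the 4. It was at 6.71, 11.7 and 7.77 FPKM in cadmium replicates 1 to 3, against 25.1, 38.0 and 33.3 FPKM in control replicates 1 to 3. Here too the groups did not overlap, with the lowest control library 2.14 times the highest cadmium library. Means were 8.73 ± 2.64 FPKM in cadmium and 32.1 ± 6.54 FPKM in control (SD, n = 3 each), a ratio of 0.272, so Mfsd2a kept the largest share of its control level. It was also the one member with at least 1 FPKM in all 3 cadmium libraries. The other 3 passed the filter on low values (1 FPKM in at least 3 libraries) through their control libraries, so no count over the members supports their direction.

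**Figure D1:**
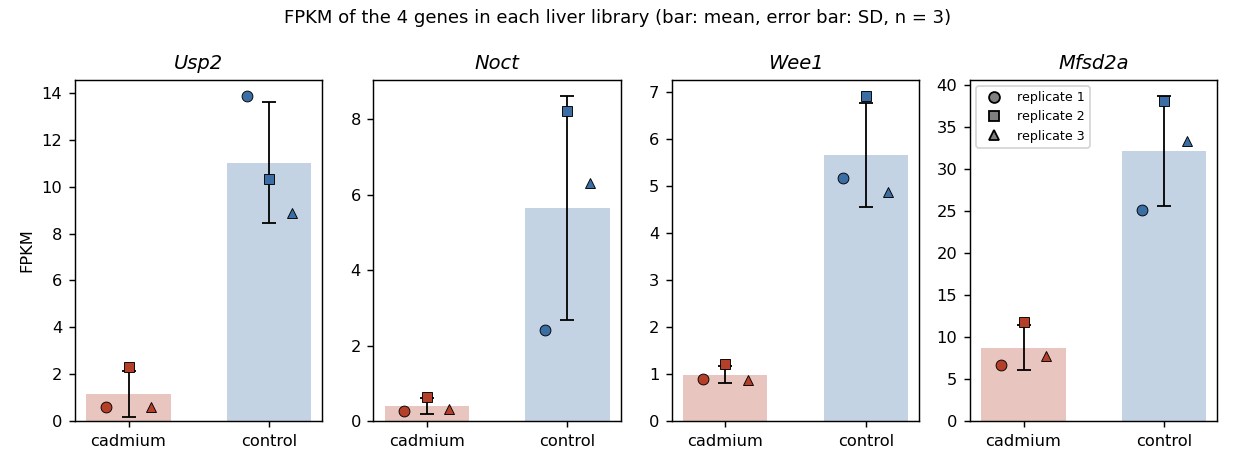
FPKM of Usp2, Noct, Wee1 and Mfsd2a in each of the 3 cadmium and 3 control libraries (points, with 1 symbol per replicate number), with the mean as a bar and the SD as an error bar. All 3 cadmium libraries sit below all 3 control libraries in each panel, cadmium replicate 2 is the highest cadmium library in all 4, and control replicate 1 is the highest control library for Usp2 and the lowest for Noct and Mfsd2a.

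Within batches the ratio of cadmium to control varied most for Usp2, at 0.0415, 0.221 and 0.0680 in batches 1, 2 and 3. For Noct it was 0.108, 0.0785 and 0.0487, and for Mfsd2a 0.267, 0.308 and 0.233. The cadmium library was the lower one in all 3 batches for each gene. Any pairing of libraries would give this, because the groups do not overlap and the genes were picked for low cadmium values. It therefore lends their direction no further support. Batch 2 gave the largest ratio for Usp2 and Mfsd2a, since cadmium replicate 2 was high, while Noct had its largest ratio in batch 1, where the control library was low.

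The members differed in how single libraries stood to their group mean on the log2(FPKM + 1) scale. All 4 were highest in cadmium replicate 2, by 0.70 for Usp2, 0.24 for Noct, 0.15 for Wee1 and 0.42 for Mfsd2a. Among controls, Noct lay 0.59 above its mean in replicate 2 and -0.85 from it in replicate 1, and Mfsd2a lay 0.26 above and -0.32 from its mean in the same libraries. Usp2 went the other way, at 0.33 in control replicate 1 and -0.07 in control replicate 2. Over the 6 deviations, Pearson's r was 0.80 between Noct and Mfsd2a, 0.72 between Wee1 and Mfsd2a, 0.60 between Noct and Wee1, 0.47 between Usp2 and Mfsd2a, 0.43 between Usp2 and Wee1 and -0.13 between Usp2 and Noct. These describe 6 libraries that share their depth and composition. Control replicate 1 and cadmium replicate 2 also had the lowest Alb level of their groups, at 10130 FPKM in the cadmium library and 10244 FPKM in the control library, against up to 17899 FPKM in the other cadmium and up to 17478 FPKM in the other control libraries. Without both, the log2 difference was -2.73 for Usp2, -2.68 for Noct, -1.86 for Wee1 and -2.15 for Mfsd2a. With all libraries it was -2.55, -2.14, -1.74 and -1.78 in the same order.

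**Figure D2:**
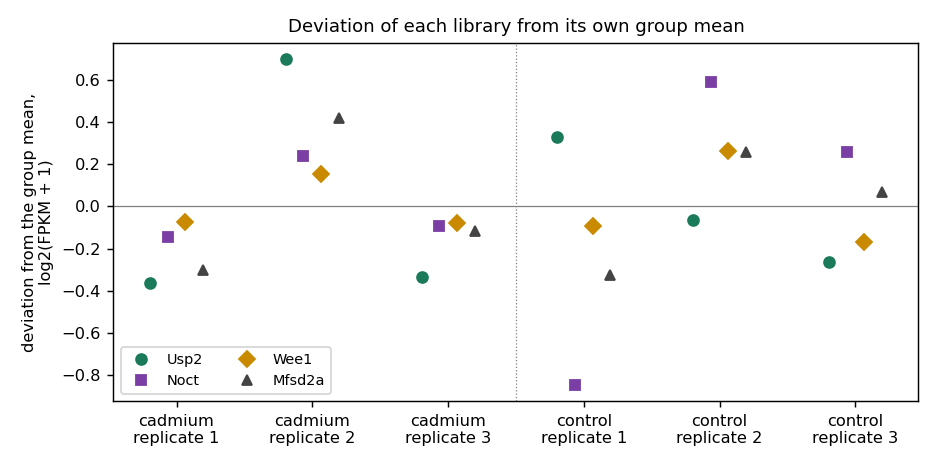
Deviation of each library from the mean of its own group in log2(FPKM + 1), for the 4 genes, cadmium libraries left and control libraries right of the dotted line. In cadmium replicate 2 all 4 genes lie above 0, with Usp2 at 0.70, and in control replicate 1 Usp2 lies at 0.33 while Noct lies at -0.85.

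The difference of cadmium minus control on the log2(FPKM + 1) scale, which understates changes of low genes, was -2.55 for Usp2, -2.14 for Noct, -1.78 for Mfsd2a and -1.74 for Wee1. In the authors' deposited table, whose log2 values are of scaled read numbers, the log2 fold changes were -3.71 for Usp2, -3.91 for Noct, -2.69 for Wee1 and -2.08 for Mfsd2a. Ordered from the most negative difference, Usp2, Noct, Mfsd2a and Wee1 stood at places 7, 8, 16 and 21 of the 9908 genes compared. Next to them stood Gm24305 (-2.86), Gm22317 (-2.11), Snora81 (-1.79), Rnu3b2 (-1.77), Gm38357 (-1.75) and Mup15 (-1.67), of which Gm24305, Gm22317, Snora81 and Rnu3b2 are small nuclear or nucleolar RNA genes and Mup15 a major urinary protein gene. On the deposited log2 values the places were 8 for Usp2, 5 for Noct, 14 for Wee1 and 28 for Mfsd2a. As background, 7.24% of the 9908 genes had all cadmium libraries below all control libraries, as the 4 chosen genes do, and limma called 1.82% lower and 9.68% in either direction at an adjusted p of 0.05. Both values are given to place the members among all genes.

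**Figure D3:**
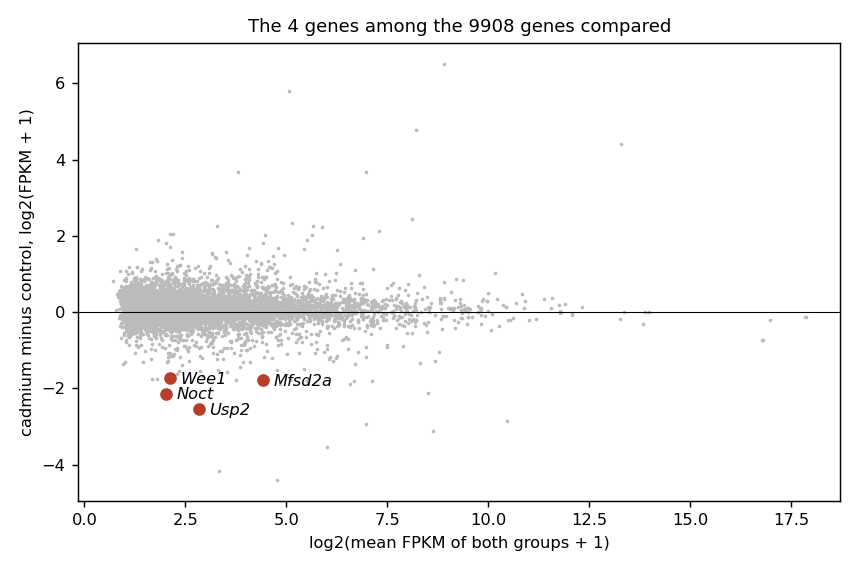
Difference of cadmium minus control in log2(FPKM + 1) against the log2 of the mean FPKM of both groups plus 1, for 9908 genes (grey) and the 4 genes (red, named). Usp2, at -2.55, and Noct, Mfsd2a and Wee1, between -2.14 and -1.74, lie at the lower edge of genes of their level.

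The neighbours of these genes were measured too. Within 30000 bases of each gene, 1 other gene passed the filter on low values near Usp2, 2 near Noct, 1 near Wee1 and 0 near Mfsd2a. Gm38357, an unconfirmed transcript on the strand of Noct (chromosome 3, 51231917 to 51234380), lies wholly inside an intron of Noct and shares 0 bases with its exons. It was at 0.240, 0.528 and 0.324 FPKM in cadmium replicates 1 to 3, against 2.25, 2.54 and 7.27 FPKM in control replicates 1 to 3. The groups did not overlap, but its highest control library was replicate 3 and that of Noct was replicate 2. Gm38357 fell in the fit over all genes (log2 difference -1.75, SE 0.37, limma adjusted p = 0.0459). The call was lost with the batch as a block (adjusted p = 0.0657), with voom on reads, with a filter on the mean and without cadmium replicates 1, 2 or 3 or control replicate 2, with adjusted p up to 0.168.

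Gm45819, another unconfirmed transcript (chromosome 7, 110119990 to 110121740), lies on the strand of Wee1 and ends 305 bases before its start. Its values were 0.0634, 0.267 and 0.120 FPKM in cadmium replicates 1 to 3, against 1.88, 2.32 and 1.42 FPKM in control replicates 1 to 3. As with Wee1, cadmium replicate 2 was the highest of its group and control replicate 2 the highest of the controls. Gm45819 fell (log2 difference -1.31, SE 0.13, adjusted p = 0.00646 by limma, 0.0301 with the block), on 6, 40 and 17 reads in cadmium and 234, 250 and 131 reads in control. Both predicted genes were singled out after their values were seen and passed the filter through their control libraries. The other tested neighbours, on the opposite strand, had near-equal group means. Rnf26, a ubiquitin ligase gene that ends 3 bases beyond Usp2, was at 2.46 ± 0.28 FPKM in cadmium and 2.11 ± 0.25 FPKM in control (adjusted p = 0.352). Elf2, a transcription factor gene beyond Noct, was at 1.93 ± 0.24 FPKM in cadmium and 2.07 ± 0.27 FPKM in control (adjusted p = 0.714). Gm49380, a protein-coding gene model opposite Usp2 that shares 200 exonic bases with it, had 138 reads in cadmium replicate 2 and 0 in the other 5 libraries. Counting by strand is not stated in the sources used here, so reads of overlapping genes cannot be told apart.

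**Figure D4:**
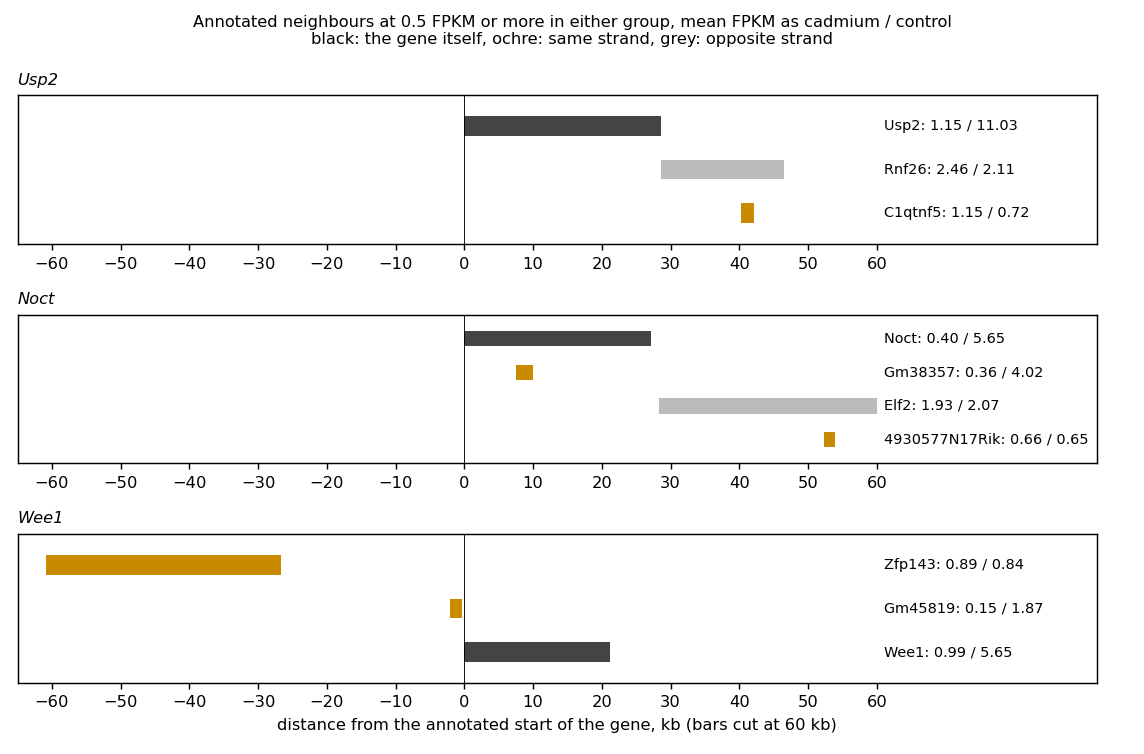
Maps of annotated neighbours at 0.5 FPKM or more in either group around Usp2, Noct and Wee1, by distance in kb from the start of each gene (bars), with mean FPKM in cadmium and in control beside each name. Gm38357 inside Noct (0.36 in cadmium, 4.02 in control) and Gm45819 before Wee1 (0.15 in cadmium, 1.87 in control) are low in cadmium, while Elf2 and Rnf26 have close means in both groups.

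Among the tested genes with a standard symbol, those most like each member over the 6 libraries were found by Pearson's r of log2(FPKM + 1). For Usp2 they were Ppat, which catalyses the committing step of purine synthesis (r = 0.997), Trim8 (0.990) and Rapgef4, a cAMP-regulated exchange factor (0.988). For Noct they were the clock repressor Per2 (0.994), the chromatin remodeller Chd9 (0.992) and the deubiquitinase Usp10 (0.990). Per2 ranged from 1.37 to 1.71 FPKM in cadmium and from 4.27 to 8.21 FPKM in control. For Wee1 they were Lonrf1 (0.998), the carboxylesterase Ces1d (0.994) and the phosphodiesterase Pde3b (0.994). Lonrf1 ranged from 0.764 to 1.01 FPKM in cadmium and from 2.48 to 3.02 FPKM in control. For Mfsd2a they were Gde1 (0.997), the PI3-kinase subunit Pik3r1 (0.996) and the transcription factor Cebpb (0.995), with Cebpb at 34.9 to 46.9 FPKM in cadmium and 81.8 to 110 FPKM in control. With 6 libraries in 2 groups, any gene with a like gap between the groups can reach such values, whatever its role.

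By deviations from the group means, which leave that gap out, the most alike genes were others. Usp2 was closest to Irf2bp1 (0.9998), Gtf2h1 (0.997) and Kalrn (0.994), and Noct to Ipo4, Sgk1 and Cyp4a31 (0.998 each). Wee1 was closest to Tesk1 (0.998) and Fgd5 (0.997), and Mfsd2a to Amdhd1 (0.999), Upf1 (0.997) and Gpat4 (0.997). Sgk1, a kinase induced by glucocorticoids, ranged from 1.78 to 2.63 FPKM in cadmium and from 1.51 to 5.76 FPKM in control, and Cyp4a31, a fatty acid hydroxylase of the PPARA-responsive Cyp4a family, from 1.74 to 2.67 FPKM in cadmium and from 2.17 to 8.60 FPKM in control. No gene was among the 3 closest by both measures for any member. These r are the highest picked from all tested genes over 6 libraries, so values near 1 can arise from the picking alone.

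The other clock output genes with a peak around dusk mostly fell. Their list, like the other lists, was chosen with earlier results of these data known. Shares over all genes are therefore given as background, and no list was tested as a set. Of 15 tested from a list of 16, 10 fell and 1 rose, against 1.82% called lower and 7.86% called higher among all 9908 genes, and the median log2 difference was -0.95, against 0.09 over all genes. Those with the smallest p were Ciart, Per3, Por, Coq10b and Tsku. Tsku, a secreted hepatokine, was at 1.38 ± 0.89 FPKM in cadmium and 51.1 ± 24.6 FPKM in control (log2 difference -4.40, SE 0.45, limma adjusted p = 0.00994), a wider gap than in any of the 4 members. Coq10b, a coenzyme Q chaperone of mitochondria, was at 1.40 ± 0.52 FPKM in cadmium and 6.40 ± 1.31 FPKM in control (log2 difference -1.63, SE 0.19, adjusted p = 0.00869, and 0.0505 with the block). The repressor Ciart, with a log2 difference of -1.76 (adjusted p = 0.00460), stood close to Mfsd2a and Wee1 and, at 0.394 to 0.779 FPKM in cadmium, passed the filter only through its control libraries. Per3 (-0.95, adjusted p = 0.00688) and Por (-1.37, adjusted p = 0.00739) changed less. Nr1d1, which encodes REV-ERB alpha, was the one that rose, to 30.7 to 35.1 FPKM in cadmium against 5.46 to 11.9 FPKM in control (adjusted p = 0.0114). Dbp was at 14.8 ± 5.54 FPKM in cadmium and 24.99 ± 4.23 FPKM in control (adjusted p = 0.119). The other PAR bZIP genes Tef (log2 difference -0.82, adjusted p = 0.0258) and Hlf (-0.60, adjusted p = 0.0406) fell. Both calls were lost with the block (adjusted p = 0.0750 and 0.0584) and each in 5 fits that left out 1 library. Of the 15 genes tested, 8 fell and 1 rose with the batch as a block. Without cadmium replicate 3, 5 fell and 0 rose, the adjusted p of Nr1d1 being 0.0515, and with no filter on low values 0 of them were called.

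Genes of the opposite phase, repressed by REV-ERB and highest around dawn, were split. Of 8 listed 4 were tested, of which 2 rose and 2 fell, against 7.86% called higher and 1.82% called lower over all genes. With the block 0 were called. The clock activator Clock was at 2.20 ± 0.30 FPKM in cadmium and 1.16 ± 0.22 FPKM in control (limma adjusted p = 0.0221, and 0.0705 with the block), and the repressor Nfil3, which competes for D-boxes, at 5.75 ± 0.13 FPKM in cadmium and 3.57 ± 0.50 FPKM in control (adjusted p = 0.0198, and 0.0584 with the block). The repressor Cry1 fell (adjusted p = 0.0286, and 0.0846 with the block). The calls of Clock, Nfil3 and Cry1 did not hold without cadmium replicate 3, where adjusted p ran between 0.0858 and 0.109. Leaving out cadmium replicate 1 also ended those of Clock and Nfil3, cadmium replicate 2 that of Cry1, control replicate 2 that of Clock and control replicate 3 that of Cry1. Arntl, which encodes BMAL1, was below the filter at 0.404 to 1.09 FPKM in cadmium and 0.0667 to 0.164 FPKM in control, ranges that did not overlap. Its partner Npas2 was at 0.115 to 0.705 FPKM in cadmium and 0.00535 to 0.0785 FPKM in control. Over all 9908 genes tested, 26.4% had all cadmium libraries above all control libraries. Arntl and Npas2, below the filter, are not among these. Among 8 rhythmic genes cued by temperature 1 rose and 2 fell, against 7.86% called higher and 1.82% called lower over all genes. Without cadmium replicate 1 or 3 or control replicate 3, and with no filter on low values, 0 were called. Without control replicate 1, 1 rose and 3 fell. Cirbp, a cold-induced RNA-binding protein, was at 4.11 ± 0.61 FPKM in cadmium and 2.35 ± 0.44 FPKM in control (adjusted p = 0.0312), and the chaperones Hspa8 and Hsph1 fell (adjusted p = 0.0339 and 0.0354). The Cirbp call was kept without control replicate 1 and lost without any other single library and under each other scaling. Hspa8 lost its call without cadmium replicates 1 or 3 or control replicates 2 or 3, and Hsph1 without any cadmium library or control replicate 3, with adjusted p up to 0.129 among the 3 genes.

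**Figure D5:**
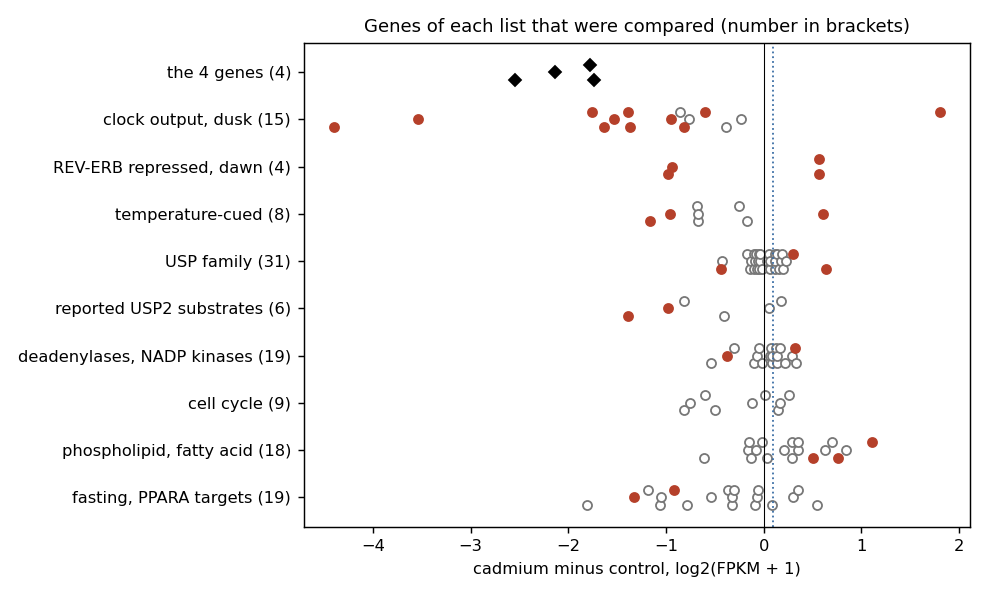
Difference of cadmium minus control in log2(FPKM + 1) for the tested genes of 9 lists (circles, red where the limma adjusted p is under 0.05) and for the 4 genes (black, with no test), with the median of all genes as a dotted line at 0.09. In the dusk list 10 of 15 genes are called lower, while the USP family lies near 0, with 2 called higher and 1 lower of 31.

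Of 31 tested members of the ubiquitin-specific protease family, to which Usp2 belongs, 2 rose and 1 fell, a share close to the 9.68% called over all genes. The median log2 difference was -0.02, against 0.09 over all genes. Usp39, a splicing factor of the family, was at 3.47 ± 0.22 FPKM in cadmium and 5.05 ± 0.48 FPKM in control (limma adjusted p = 0.0314). Usp18, an interferon-induced protease that removes ISG15, was at 3.43 ± 0.73 FPKM in cadmium and 1.83 ± 0.41 FPKM in control (adjusted p = 0.0411), and Usp3 at 2.15 ± 0.17 FPKM in cadmium and 1.56 ± 0.02 FPKM in control (adjusted p = 0.0460). With the block the call of Usp18 was kept and those of Usp39 and Usp3 were lost (adjusted p = 0.0877 and 0.103). Usp39 kept its call without control replicate 1 and lost it without any other library. Usp18 lost its call without cadmium replicates 2 or 3 or control replicates 1 or 3, as well as on quantile-normalized or deposited log2 values. Usp3 lost its call in all 6 fits that left out a library and under each other scaling, and adjusted p reached 0.187 among the 3 genes. Usp21, a close relative of Usp2, was at 1.66 ± 0.15 FPKM in cadmium and 1.28 ± 0.25 FPKM in control (adjusted p = 0.187). Of 6 tested genes for reported USP2 substrates 0 rose and 2 fell, against 7.86% called higher and 1.82% called lower over all genes. The 2 were the clock genes Per1 (adjusted p = 0.0267) and Cry1 given above. Per1 was at 1.94 ± 0.63 FPKM in cadmium and 6.78 ± 2.20 FPKM in control, and its call was kept without control replicate 1 and lost without any other library, with adjusted p up to 0.0812. The cell cycle gene Ccnd1, encoding cyclin D1, was at 10.3 ± 2.77 FPKM in cadmium and 18.9 ± 5.03 FPKM in control (adjusted p = 0.0981). Mdm2, which encodes the p53 ubiquitin ligase, was at 2.45 ± 0.35 FPKM in cadmium and 2.32 ± 0.26 FPKM in control (adjusted p = 0.795), its relative Mdm4 at 1.61 ± 0.07 FPKM in cadmium and 1.31 ± 0.08 FPKM in control (adjusted p = 0.161), and the fatty acid synthase Fasn at 138 ± 79.8 FPKM in cadmium and 179 ± 88.9 FPKM in control (adjusted p = 0.680). Aurka, a mitotic kinase gene, was below the filter.

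Around Noct, 19 of 20 deadenylase, CCR4-NOT and NADP kinase genes were tested, of which 1 rose and 1 fell, a share close to the 9.68% called over all genes, with 0 called under the block. Pde12, a mitochondrial deadenylase, was at 0.732 ± 0.102 FPKM in cadmium and 1.25 ± 0.14 FPKM in control (limma adjusted p = 0.0360, and 0.0715 with the block). It passed the filter only through its control libraries and was not tested with the filter on the mean. Parn, a poly(A)-specific ribonuclease, was at 2.35 ± 0.08 FPKM in cadmium and 1.68 ± 0.13 FPKM in control (adjusted p = 0.0377, and 0.0918 with the block). Both calls were kept without control replicate 1 and lost without any other library, with adjusted p up to 0.128, and that of Parn was also lost under each other scaling. The deadenylase Cnot6 was at 3.91 ± 0.30 FPKM in cadmium and 3.65 ± 0.40 FPKM in control (adjusted p = 0.646), Cnot6l at 3.86 ± 0.10 FPKM in cadmium and 3.45 ± 0.60 FPKM in control (adjusted p = 0.476), and Angel2 at 2.00 ± 0.08 FPKM in cadmium and 2.20 ± 0.15 FPKM in control (adjusted p = 0.456). Angel1 was below the filter.

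Around Wee1, 9 of 26 cell cycle genes passed the filter and limma called 0 at an adjusted p of 0.05, with 2 under an unadjusted p of 0.05 and 0 called by voom. The mitotic genes lay far below 1 FPKM. Pkmyt1, the other kinase that inhibits CDK1, was at 0.151 ± 0.104 FPKM in cadmium and 0.0632 ± 0.0394 FPKM in control, and Cdk1 itself at 0.103 ± 0.059 FPKM in cadmium and 0.0531 ± 0.0267 FPKM in control. Top2a, a topoisomerase of dividing cells, ranged from 0.235 to 0.309 FPKM in cadmium and from 0.0313 to 0.0828 FPKM in control, without overlap and with no test. Mki67, another marker of dividing cells, was at 0.152 to 0.542 FPKM in cadmium and 0.0491 to 0.137 FPKM in control. Ccnb1, Cdc25b and Btrc of the list were also higher in cadmium without overlap and with no test. Ccnb1 ranged from 0.0507 to 0.120 FPKM in cadmium and from 0.0279 to 0.0451 FPKM in control. Ccna2 and Plk1 had higher means in cadmium, with ranges that overlapped. Some genes of the list went the other way or were level. Ccne1, encoding cyclin E1, ranged from 0.0201 to 0.112 FPKM in cadmium and from 0.165 to 0.277 FPKM in control, also without overlap. Over all 9908 genes tested, 26.4% had all cadmium libraries above all control libraries and 7.24% had them all below. The genes below the filter are not among these, and their own share was not computed. Ccnb2, a mitotic cyclin gene, averaged 0.192 FPKM in both groups, and the checkpoint kinase gene Chek1 was at 0.0434 ± 0.0098 FPKM in cadmium and 0.0494 ± 0.0035 FPKM in control.

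Around Mfsd2a, 18 of 23 genes of phospholipid remodelling and long-chain fatty acid handling were tested, of which 3 rose and 0 fell, against 7.86% called higher and 1.82% called lower over all genes, and 0 were called with the block. Their median log2 difference was 0.29, against 0.09 over all genes. Elovl5, an elongase of polyunsaturated fatty acids, was at 140 ± 29.9 FPKM in cadmium and 63.9 ± 8.69 FPKM in control (limma adjusted p = 0.0203, and 0.0668 with the block). Pla2g12b, a catalytically inactive phospholipase that acts in lipoprotein secretion, was at 19.9 ± 0.60 FPKM in cadmium and 11.5 ± 1.93 FPKM in control (adjusted p = 0.0186, and 0.0516 with the block). Chkb, a choline kinase, was at 7.16 ± 0.36 FPKM in cadmium and 4.77 ± 0.84 FPKM in control (adjusted p = 0.0402, and 0.0791 with the block). All 3 lost their calls without cadmium replicates 1 or 3. Elovl5 and Chkb also lost theirs without control replicate 3, and Chkb without cadmium replicate 2 or control replicate 1 and after each other scaling, with adjusted p up to 0.146 without 1 library. The related carrier Mfsd2b was at 0.0614 ± 0.0066 FPKM in cadmium and 0.0376 ± 0.0102 FPKM in control, below the filter. Of 19 tested genes induced by fasting or PPARA 0 rose and 2 fell, against 7.86% called higher and 1.82% called lower over all genes. Without control replicate 1, 5 fell. The 2 were the tyrosine aminotransferase Tat (adjusted p = 0.0244, and 0.0533 with the block) and the thioesterase Acot1 (adjusted p = 0.0387). Both calls were lost without cadmium replicates 1 or 3 or control replicates 2 or 3, with adjusted p up to 0.138. Fgf21, a fasting hepatokine below the filter, was at 0.413 ± 0.118 FPKM in cadmium and 0.101 ± 0.105 FPKM in control.

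The libraries held 42115960 to 68587128 recovered reads in cadmium and 42476574 to 59095817 in control. Hepatocyte markers were abundant in all 6, with 8 genes summing to 17159 to 25248 FPKM in cadmium and 16640 to 24820 FPKM in control, of which 1 fell (0 with the block). Among markers of other cell types, of 6 tested stellate cell markers 5 rose (2 with the block) and of 7 tested macrophage markers 2 rose. Over all 9908 genes, 7.86% were called higher and 1.82% lower. The 7 listed stellate cell markers summed to 30.02 to 33.6 FPKM in cadmium and 12.6 to 20.0 FPKM in control, and the 8 macrophage markers to 65.8 to 77.8 FPKM in cadmium and 34.3 to 56.8 FPKM in control. Of 7 sinusoidal endothelial markers 1 rose (0 with the block), with sums of 32.1 to 43.3 FPKM in cadmium and 23.6 to 35.4 FPKM in control. Sums of cholangiocyte, lymphocyte and erythroid markers overlapped between the groups. Of these, 1 of 6 cholangiocyte, 0 of 6 lymphocyte and 3 of 4 erythroid markers could be tested, and none of the tested ones was called. Adipocyte markers summed to at most 0.0518 FPKM over 2 of 4 listed genes (Plin1 and Lep absent or at 0), and acinar markers to at most 1.89 FPKM over 1 of 4 (Cpa1, Prss2 and Pnlip absent or at 0). None of the stellate, macrophage or endothelial markers was at 0 in all libraries, and the part of these cells in the levels of the 4 genes was not tested.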

How the data were processed

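The 3 cadmium and 3 control input libraries of liver were read as 150-base pairs per the labels' protocols. Tools named per the submitters' processing notes include STAR 2.7.1a and cutadapt 1.1.8, and the build mm10. No source used here names the annotation or the read counter. The authors deposited FPKM for 55335 genes, and log2 values for 34352 genes beside a p-value and a log2 fold change per gene, whose test is not stated. Undoing the log2 gave whole multiples of 1 step per library for 100% of values above 0 (within 0.05 of a read), which were taken as reads. FPKM per read matched the joint exon length in GENCODE M21 (GRCm38) within 10 percent of a common factor for 99.5% of 9314 genes, and 55154 of 55335 identifiers were in that annotation, the source of coordinates.

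The comparison used limma 3.58.1 (R 4.3.3) on log2(FPKM + 1), with trend and robust moderation, two-sided, over 9908 genes reaching 1 FPKM in 3 or more libraries, with Benjamini-Hochberg adjusted p under 0.05 as the threshold. It was tested on simulated data. Alternatives were the batch as a block, 2 scalings, a pseudocount of 0.1, 2 filters, the deposited log2 values, voom on recovered reads and leaving out libraries. The pairing comes from the batch number in the labels: deviations correlated across genes at -0.21, -0.23 and -0.02 between libraries of the same batch. Between cadmium and control libraries of different batches they correlated at -0.10 to 0.28. By this measure libraries of the same batch were not more alike. Blocked values are given where they end a call.

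The 4 members and the gene lists were chosen with earlier results of these data known. Genes named are the called genes of each list (the 5 of smallest p where more were called), relatives of the members, reported USP2 substrates, genes next to the members in order and the 3 most alike by each measure. Other genes named, among them Nr1d1, Dbp, Tef, Hlf, the predicted neighbours and genes below the filter, were chosen after their values were seen. Some genes that the rule names are not reported here.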

Additional observations from a re-analysis of the deposited data

How the results depend on the processing

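The 4 genes were picked for low cadmium values and their groups do not overlap, so leaving out libraries cannot change the sign of a difference. The block and the 2 filters leave each difference as it is. The log2 differences of Usp2, Noct, Wee1 and Mfsd2a were negative under all 15 alternatives run, a count that lends their direction no support. On scales that compress low values less they were larger: with a pseudocount of 0.1 they were -3.39 for Usp2, -3.42 for Noct and -2.40 for Wee1, in the deposited log2 values -3.71, -3.91 and -2.69, and with voom on recovered reads -3.44, -3.68 and -2.49, in the same gene order. Without 1 library they ran from -2.90 to -2.37 for Usp2, from -2.56 to -1.84 for Noct, from -1.82 to -1.60 for Wee1 and from -1.99 to -1.63 for Mfsd2a. An alternative chosen after seeing the data left out control replicate 1 and cadmium replicate 2. It gave -2.73 for Usp2, -2.68 for Noct, -1.86 for Wee1 and -2.15 for Mfsd2a.

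Over all genes 779 were called higher and 180 lower. Counts of higher and lower genes were 184 and 64 with the replicate block, 347 and 298 after quantile normalization, 510 and 233 after upper quartile scaling, 381 and 493 in the deposited log2 values and 31 and 6 with no filter, where 34351 genes were tested. Without 1 library they ran from 78 to 539 higher and from 23 to 242 lower, and without the 2 libraries above 478 were higher and 244 lower. Of the called genes 18.8% were lower, against 46.2% (quantile), 31.4% (upper quartile) and 56.4% (deposited log2), and the median of all genes, 0.09, moved to -0.01 (quantile) and -0.06 (deposited log2). The 10 lower and 1 higher dusk genes were 0 and 0 with no filter, and without 1 library 5 to 9 lower and 0 to 1 higher. Without the 2 libraries 0 dusk genes were higher. The 2 lower and 2 higher dawn genes were 0 and 0 with the replicate block and with no filter, 1 higher in the deposited log2 values, 0 lower without the 2 libraries, and 0 to 2 in each direction without 1 library. Among single genes other than the 4, 782 comparisons with an alternative kept their call or lack of one, 197 lost a call and 25 gained one, and the cause was not tested. The 782 include genes not called in the main fit, which had no call to lose, also where their sign changed. They are therefore no measure of how stable the calls were.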
